A study of Mus musculus with 11 samples.

Results

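The IL-6 family cytokine transcripts *Il6*, *Lif*, and *Il11* were followed in mouse skin carcinoma cells and lymphatic endothelial cells (LECs) grown apart or together. The members were taken by gene symbol. They are *Il11* and *Lif* among the 290 genes with values for HaCa4 cells, and *Il6* and *Lif* among the 191 genes with values for LECs, so that 3 of 458 genes in all were followed, in 4 combinations of gene and cell line. Only *Lif* has values in both cell lines, among 23 such genes. *Il6* in HaCa4 cells and *Il11* in LECs were not analysed here.

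HaCa4 is a mouse line of squamous cell carcinoma of the skin. The LECs (imLEC) are conditionally immortal mouse cells, whose temperature-sensitive SV40 large T antigen is driven by the interferon-responsive H-2Kb promoter. A pair of LEC clones was used interchangeably in the study, and the clone behind each library is not given in the sources used here. RNA came from HaCa4 control (n = 2) and LEC control (n = 3), which were single cultures, and from HaCa4-sorted (n = 3) and LEC-sorted (n = 3), which were separated by FACS after 24 h of shared culture. In the sort, the cancer cells were recognised by the dye CFSE and the LECs by an antibody to CD31, and dead cells and doublets were left out. The sources used here leave unclear whether the single cultures also went through the sorter, and if they did not, shared culture and sorting cannot be told apart. Nor do they say that replicates came from separate cultures, so p-values measure only the spread between libraries. Each value is a TPM, an abundance scaled for transcript length and for the library total, so levels of different genes can be set side by side. In bulk samples, fewer cells expressing a gene and less RNA per cell cannot be told apart.

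Cytokines of the IL-6 family signal through receptors that share the chain encoded by *Il6st*, which activates JAK kinases and the transcription factor STAT3. *Socs3* is a STAT3 target whose product shuts this signal off. IL-6 is best known for the acute-phase response and inflammation, LIF for stem cell maintenance and implantation, and IL-11 for epithelial tumours and fibrosis. Transcription of *Il6* is classically controlled by NF-κB, C/EBP, and AP-1 factors.

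The promoters of the members are shown first, since the transcripts that changed in LECs include genes of the NF-κB, C/EBP, and AP-1 factors. In HaCa4 cells, where *Il11* was followed, *Fosl2* was the only such gene listed, and it was not called. Each line holds the 250 bases before a RefSeq start site on GRCm38.p6, written 5′ to 3′ on the strand of the gene. Capitals mark a match to the NF-κB letters GGNNTTTCC, the AP-1 letters TGANTCA, or the C/EBP letters TTNNGNAAT. *Il6* lies on chromosome 5 from 30013114 to 30019975 on the plus strand, *Lif* on chromosome 11 from 4257568 to 4272514 on the plus strand, and *Il11* on chromosome 7 from 4772373 to 4782907 on the minus strand.
Il6 (chr5:30012864-30013113, plus strand): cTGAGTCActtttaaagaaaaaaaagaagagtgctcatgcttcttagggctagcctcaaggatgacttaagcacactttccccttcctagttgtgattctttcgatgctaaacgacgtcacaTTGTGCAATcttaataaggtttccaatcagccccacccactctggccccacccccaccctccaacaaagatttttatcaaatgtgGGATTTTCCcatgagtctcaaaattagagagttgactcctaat
Lif (chr11:4257318-4257567, plus strand): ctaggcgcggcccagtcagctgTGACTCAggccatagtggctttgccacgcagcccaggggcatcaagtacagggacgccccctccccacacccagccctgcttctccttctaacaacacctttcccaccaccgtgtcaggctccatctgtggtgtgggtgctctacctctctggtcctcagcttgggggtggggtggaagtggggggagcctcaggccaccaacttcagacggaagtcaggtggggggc
Il11, downstream start (chr7:4778142-4778391, minus strand): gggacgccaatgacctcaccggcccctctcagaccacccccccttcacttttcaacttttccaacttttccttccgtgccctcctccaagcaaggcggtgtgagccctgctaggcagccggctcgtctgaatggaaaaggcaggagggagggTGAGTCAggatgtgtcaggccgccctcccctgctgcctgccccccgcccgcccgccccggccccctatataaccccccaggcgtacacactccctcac

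All 3 sequences held an AP-1 match. Counted from the start site, its first base was at position -249 in *Il6*, -228 in *Lif*, and -98 in *Il11*. The *Il6* promoter also held a C/EBP match at -128 and an NF-κB match at -43. The second start site that RefSeq gives for *Il11*, further upstream, held none of these. The letters TGACGTCA (CRE) and TTCNNNGAA (STAT) were searched as well and were found in none of the 4 windows. Both strands of 300 bases were searched, 250 before and 50 after the start. Among all 32851 RefSeq promoters of this length, 7.81% held the AP-1 letters, 5.82% the NF-κB letters, 11.5% the C/EBP letters, 1.79% the CRE letters, and 8.30% the STAT letters. The matches are a description of the sequence, and binding was not measured.

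**Figure D1:**
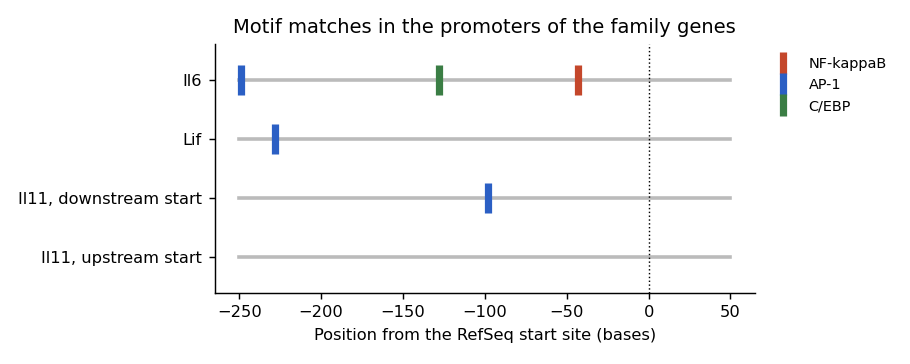
Motif matches along the promoter windows of *Il6*, *Lif*, and both RefSeq starts of *Il11*, plotted by the position of their first base from the start site (x axis, in bases). The AP-1 match is at -249, -228, and -98 in *Il6*, *Lif*, and the downstream start of *Il11*, and *Il6* alone among the 4 windows holds NF-κB and C/EBP matches.

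In HaCa4 cells *Il11* was higher after shared culture. The 2 HaCa4 controls held 8.49 and 5.46 TPM of *Il11*, and HaCa4-sorted replicates 1 to 3 held 41.66, 12.84, and 29.18 TPM. Every sorted library was above both controls, and among the sorted libraries replicate 2 had the least. The mean rose 4.0-fold, from 6.97 ± 2.14 (n = 2) to 27.9 ± 14.5 TPM (n = 3, mean ± SD). A gene was called where its adjusted p did not exceed 0.05 and its log2 fold change reached 0.5 in either direction, the cutoffs of the study. *Il11* was called at 1.74 ± 0.49 (log2 fold change of TPM + 1, ± SE, limma adjusted p = 0.0418). Of the 290 genes, 30.0% passed (15.9% higher and 14.1% lower in HaCa4-sorted), and *Il11* had the 36th highest log2 fold change.

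*Lif* was the more abundant ligand in the HaCa4 controls, at 42.88 and 24.89 TPM. HaCa4-sorted replicates 1 to 3 held 22.64, 18.52, and 18.11 TPM. All sorted libraries were below both controls, but the second control was only slightly above sorted replicate 1. The means were 33.9 ± 12.7 TPM (SD, n = 2) and 19.8 ± 2.51 TPM (SD, n = 3), a ratio of 1.72 between control and sorted. The log2 fold change of -0.71 (95% confidence interval -1.34 to -0.08) did not pass the thresholds (limma adjusted p = 0.0629).

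The absence of overlap between the groups is no mark of these genes, since it held for 96.6% of the listed HaCa4 genes. How the listed HaCa4 genes were selected is not given in the sources used here, and their number differs from the paper's count of deregulated HaCa4 genes. With the groups apart in 96.6% of them, they were most likely selected for a difference between these same libraries. Calls among them, also with a library left out, are then no independent support. An exact permutation test (two-sided) of *Il11* or *Lif* gave p = 0.2, the smallest value that 2 libraries against 3 allow. The calls depended on single libraries. *Il11* no longer passed without control replicate 1 (limma adjusted p = 0.0999), control replicate 2 (adjusted p = 0.196), or sorted replicate 3 (adjusted p = 0.101), and *Lif* was called without sorted replicate 1 (adjusted p = 0.0485). Without control replicate 1, the log2 fold change of *Lif* was -0.33. After libraries were brought to a common median over the listed genes, the log2 fold changes of the 290 genes shifted by a median of -0.72. *Il11* then had a log2 fold change of 0.95 and did not pass (limma adjusted p = 0.0771), whereas *Lif* had -1.54 and passed (limma adjusted p = 0.000979). The listed HaCa4 genes lean higher in HaCa4-sorted (median log2 fold change 0.74), so this scaling also takes out any rise that most of them share. Calls lost or gained under it, here and below, cannot show which scaling is right.

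**Figure D2:**
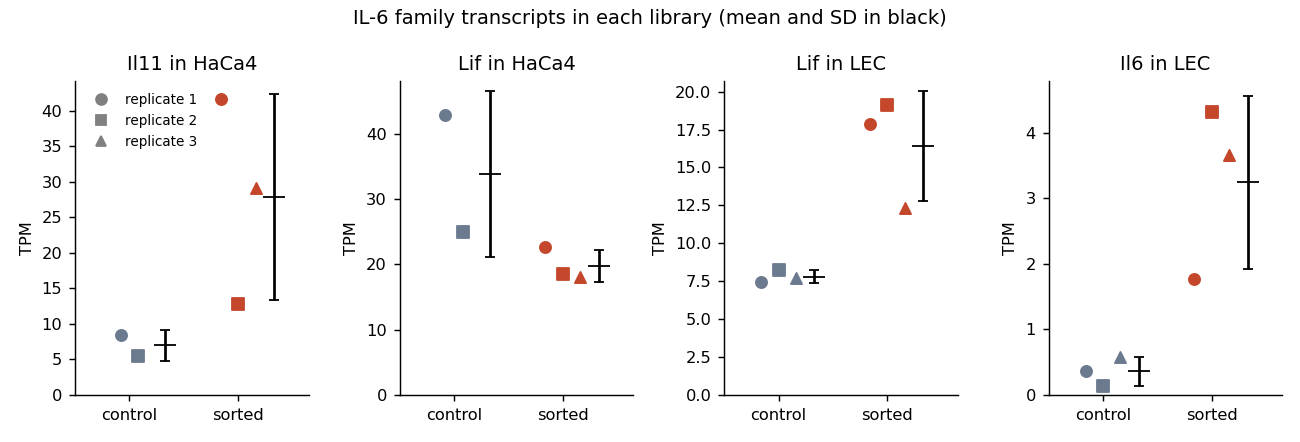
TPM (y axis, from 0) of each member in every control and sorted library, with symbols for the replicate number and the mean ± SD in black beside each group. HaCa4-sorted lies above its control for *Il11* and below it for *Lif*, and LEC-sorted lies above its control for *Lif* and *Il6*, with no overlap in any panel.

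The ratio of 2 transcripts within a library does not depend on how the library is scaled. This ratio was added after the values had been seen. *Il11* stood at 0.198 and 0.219 of the level of *Lif* in the HaCa4 controls. In HaCa4-sorted replicates 1 to 3 it stood at 1.84, 0.693, and 1.61 of that level. *Il11* was thus the more abundant of the pair in sorted replicates 1 and 3 and the less abundant in replicate 2 and in both controls. The ratio was 6.10-fold higher in the sorted libraries by geometric means, with an exact two-sided permutation p = 0.2, the smallest possible here. Leaving out any library gave a difference between 2.34 and 3.05 on the log2 scale, around 2.61 with all libraries.

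**Figure D3:**
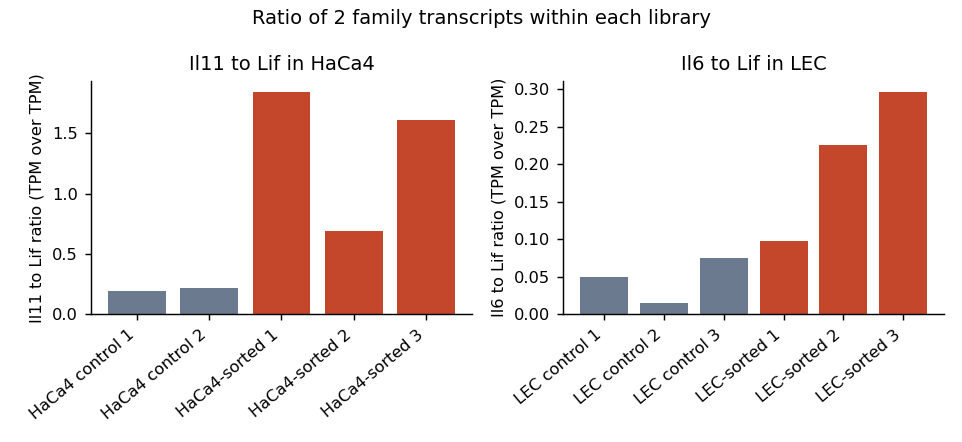
Ratio of *Il11* to *Lif* in the HaCa4 libraries (left) and of *Il6* to *Lif* in the LEC libraries (right), TPM over TPM, with 1 bar per library, controls in grey and sorted libraries in red. The *Il11* to *Lif* ratio is at most 0.219 in the controls and at least 0.693 in the sorted libraries, and the *Il6* to *Lif* ratio is at most 0.0752 in the controls and at least 0.0984 in the sorted libraries.

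Endothelial transcripts also moved with the HaCa4 groups. Of 31 endothelial markers, 20 are among the HaCa4 genes, and their sum was 12 and 7.10 TPM in HaCa4 control, against 41.4, 308.5, and 144.0 TPM in HaCa4-sorted. In the controls, 11 and 9 of the 20 were listed at 0, and *Cdh5*, *Emcn*, *Erg*, *Flt4*, *Icam2*, *Robo4*, and *Thy1* were at 0 in both. *Selp* alone made up 8.0 and 4.0 TPM of the control sums and was highest in sorted replicate 1 (21.49 TPM). Without it the sums were 4.02 and 3.10 TPM in HaCa4 control and 19.9, 294.0, and 129.6 TPM in HaCa4-sorted, in the same order of sorted libraries. *Pecam1*, which encodes the CD31 of the sort, had 0.14 and 0.04 TPM without LECs and 1.29, 24.25, and 9.38 TPM with them, although it was not called (limma adjusted p = 0.0543). The order of the sorted libraries by *Il11* (replicate 1 highest, then 3, then 2) was the reverse of their order by the endothelial sum (replicate 2 highest, then 3, then 1). Without sorted replicate 2, the library richest in endothelial transcripts, the log2 fold change of *Il11* was 2.20 (limma adjusted p = 0.0189) and that of *Lif* -0.67 (limma adjusted p = 0.115). The keratinocyte markers *Krt8*, *Krt6b*, and *Dsg3*, 3 of 20 in the list, summed to 310.8 and 399.7 TPM without LECs and to between 215.0 and 246.4 TPM with them. Most of each sum was *Krt8*, at 283.8 and 380.4 TPM without LECs and between 205.3 and 238.2 TPM with them. The part of cells or RNA from LECs in the levels of *Il11* and *Lif* was not tested. *Il11* in LECs was not analysed, and the order of 3 sorted libraries cannot decide that part.

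**Figure D4:**
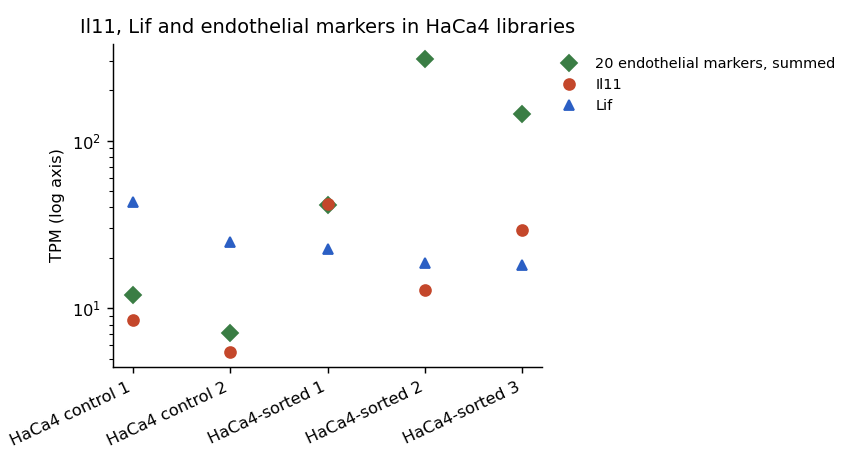
*Il11*, *Lif*, and the sum of 20 endothelial markers in each HaCa4 library (y axis, TPM on a log scale). Among the sorted libraries, the endothelial sum is highest in replicate 2 (308.5 TPM), where *Il11* is lowest (12.84 TPM), and lowest in replicate 1 (41.4 TPM), where *Il11* is highest (41.66 TPM).

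In LECs, both family members with values were higher after shared culture. The LEC controls held 7.43, 8.26, and 7.71 TPM of *Lif*, and LEC-sorted replicates 1 to 3 held 17.89, 19.12, and 12.32 TPM. The controls lay close together, and replicate 3 had the least *Lif* among the LEC-sorted libraries. The mean rose 2.11-fold, from 7.80 ± 0.42 (n = 3) to 16.4 ± 3.62 TPM (n = 3, mean ± SD), and *Lif* was called at 0.97 ± 0.23 (log2 fold change ± SE, limma adjusted p = 0.00810).

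*Il6* was far less abundant. The LEC controls held 0.37, 0.13, and 0.58 TPM of it, and LEC-sorted replicates 1 to 3 held 1.76, 4.31, and 3.65 TPM. The mean rose 9.0-fold, from 0.36 ± 0.23 (n = 3) to 3.24 ± 1.32 TPM (n = 3, mean ± SD), and sorted replicate 1 was the lowest. On log2(TPM + 1), which compresses such low values, it was called at 1.60 ± 0.33 (log2 fold change ± SE, limma adjusted p = 0.00527), and with a pseudocount of 0.1 it was 2.90. Even after co-culture, *Il6* ranked 174th of the 191 genes by level, against 130th for *Lif*. The number of reads behind these values is unknown, so no counting error can be attached to the low controls.

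The calls for *Lif* and *Il6* stand among 96.3% of the LEC genes called (63.9% higher and 32.5% lower in LEC-sorted). The groups did not overlap in 96.9%. The paper counts 191 genes as deregulated in LECs, as many as are listed here. The LEC genes were thus most likely selected for this same difference between the same libraries. Calls among them, also with a library left out, are then no independent support. An exact two-sided permutation test of either gene gave p = 0.1, the smallest value for 3 libraries against 3. Leaving out any LEC library kept both calls, with adjusted p-values from limma of at most 0.0282 for *Lif* and 0.0176 for *Il6*. At a common library median, *Lif* had a log2 fold change of 0.39 and did not pass (limma adjusted p = 0.159), and *Il6* had 1.27 and passed (limma adjusted p = 0.00713). That scaling shifted the LEC genes by a median of -0.61. The listed LEC genes lean higher in LEC-sorted (median log2 fold change 0.87), so the scaling also takes out any rise that most of them share. A call lost under it, here and below, cannot show that the gene was unchanged.

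Relative to *Lif* in the same library, *Il6* stood at 0.0498, 0.0157, and 0.0752 in the controls and at 0.0984, 0.225, and 0.296 in LEC-sorted. The lowest sorted ratio was only slightly above the highest control. The ratio was 4.81-fold higher in LEC-sorted by geometric means (exact two-sided permutation p = 0.1, the smallest possible). Leaving out a library gave a difference between 1.61 (without control replicate 2) and 2.74 (without control replicate 3) on the log2 scale, around 2.27 with all 6. *Lif* was the more abundant of the pair in all 6 libraries.

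*Lif* can be ordered across all 4 groups. HaCa4 control was highest (33.9 TPM), followed by HaCa4-sorted (19.8 TPM), LEC-sorted (16.4 TPM), and LEC control (7.80 TPM). HaCa4-sorted, from 18.11 to 22.64 TPM, and LEC-sorted, from 12.32 to 19.12 TPM, overlapped. No other neighbours in this order did. The change of *Lif* in LECs exceeded that in HaCa4 by 1.67 on the log2 scale (SE 0.39, 95% confidence interval 0.82 to 2.52, limma interaction fitted to the 11 libraries, adjusted p = 0.00263). Of the 23 genes with values in both lines, 82.6% passed this test. At a common library median the difference was 1.93, and leaving out any library gave between 1.29 and 2.05, all past the threshold.

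By the sign of the log2 fold change alone, *Lif* was 1 of 8 shared genes with negative values in HaCa4 cells and positive values in LECs, while 8 had the opposite signs and 7 the same sign in both lines. Of the 8 that include *Lif*, *Ikbke*, *Krt8*, and *Mmp13* were called lower in HaCa4-sorted, and *Lif*, *Lrig1*, *Micall2*, *Mmp3*, and *Tnfrsf9* were not. *Ikbke* encodes the kinase IKK-epsilon of innate immune signalling. *Ikbke* fell from 59.24 and 39.64 TPM to 26.75, 30.42, and 31.29 TPM in HaCa4 cells (log2 fold change -0.70, limma adjusted p = 0.0424). In LECs it rose from between 28.95 and 56.91 TPM to between 73.55 and 102.2 TPM (log2 fold change 1.22, limma adjusted p = 0.00727). The HaCa4 call of *Ikbke* was lost in 7 of 13 alternatives, among them leaving out control replicate 1 (-0.42, limma adjusted p = 0.214), control replicate 2 (0.161), sorted replicate 2 (0.0572), or sorted replicate 3 (0.0873), and its LEC call was lost at a common library median (0.61, limma adjusted p = 0.0717). The cancer cell transcript *Krt8*, the single keratinocyte marker of 20 among the LEC genes, was at 0 in all LEC controls and at 0.19, 2.19, and 0.89 TPM in LEC-sorted, against 205.3 TPM or more in every HaCa4 library. Of 31 endothelial markers, 4 (*Pdpn*, *Kdr*, *Sele*, *Selp*) are among the LEC genes and summed to between 398.8 and 414.5 TPM in the controls and between 717.1 and 1158 TPM in LEC-sorted. They did not move together: *Pdpn*, *Sele*, and *Selp* were called higher, whereas *Kdr* fell from 151.9 to 100.9 TPM (mean of 3 libraries each, log2 fold change -0.59, limma adjusted p = 0.0126).

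The surrounding pathway was represented unevenly. Of 12 ligand genes of the family, LECs had values for *Il6* and *Lif*, and of 9 receptor genes neither line had any. The median log2 fold change of all genes was 0.74 in HaCa4 cells and 0.87 in LECs.

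Among 18 genes of the JAK-STAT cascade and its feedback, *Stat2*, a transducer of interferon signals, was measured in HaCa4 cells and did not pass (log2 fold change 1.11, limma adjusted p = 0.0925). In LECs the list held *Socs3* alone. *Socs3* rose from 38.07, 40.69, and 43.39 TPM to 83.28, 86.68, and 64.22 TPM (log2 fold change 0.91, limma adjusted p = 0.00408). At a common library median it had 0.29 and was no longer called (limma adjusted p = 0.186). Sorted replicate 3 was the lowest for *Socs3*, as it was for *Lif*.

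Of 30 known target genes of STAT3 or of the acute-phase response, 8 have values in LECs, and all 8 passed as higher in LEC-sorted, as did 63.9% of all LEC genes. Their median log2 fold change was 1.97, against 0.87 for all 191 genes, of which 32.5% were called lower. This gap partly reflects direction, and nothing particular to the list can be read from it. The 8 genes include *Lcn2*, an iron-scavenging defence protein (log2 fold change 7.19), and *Saa3*, an acute-phase protein (3.41). The factors *Cebpd* and *Cebpb*, of the C/EBP family, had log2 fold changes of 1.94 and 1.27, and *Bcl3*, a nuclear regulator of NF-κB, had 2.01. *C3*, *Ccl2*, and *Hif1a* had 2.31, 1.55, and 0.77. At a common library median *Cebpb* (0.65, limma adjusted p = 0.0579) and *Hif1a* (0.15, limma adjusted p = 0.452) lost their calls. In HaCa4 cells the list held *Icam1* alone, which did not pass (log2 fold change 1.86, limma adjusted p = 0.0621).

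Of 25 genes of the NF-κB and IL-1 pathways, 6 have values in LECs, and all 6 passed as higher in LEC-sorted, with a median log2 fold change of 1.19. *Nfkbiz*, whose product is a nuclear cofactor needed for *Il6* transcription, rose from between 16.4 and 20.45 TPM to between 58.72 and 88.39 TPM (log2 fold change 2.06). *Nfkbia*, the inhibitor that NF-κB induces against itself, had a log2 fold change of 1.30, the IL-1 receptor gene *Il1r1* had 1.15, and the subunit genes *Nfkb1* and *Nfkb2* had 1.02 and 0.79. In HaCa4 cells *Ikbke* was the single gene of this list. At a common library median 4 of the 6 LEC genes lost their calls, namely *Ikbke*, *Il1r1* (0.53, limma adjusted p = 0.132), *Nfkb1* (0.40, limma adjusted p = 0.0598), and *Nfkb2* (0.17, limma adjusted p = 0.494), and *Nfkbiz* and *Nfkbia* kept theirs. These counts stand beside the 63.9% of LEC genes called higher, and nothing particular to the lists can be read from them.

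Of 11 AP-1 genes, *Fosl2* has values in both lines. It was at 35.52 and 24.76 TPM in HaCa4 control and at 52.40, 37.68, and 45.66 TPM in HaCa4-sorted (log2 fold change 0.58, limma adjusted p = 0.0633), and a common library median turned this to -0.26. In LECs *Fosl2* rose with a log2 fold change of 0.80 (limma adjusted p = 0.00951), which was 0.17 and no longer passed after that scaling. *Fosb* fell in LECs from 8.39 ± 6.17 TPM to 1.69 ± 0.82 TPM (SD, n = 3 each; log2 fold change -1.64, limma adjusted p = 0.0142).

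**Figure D5:**
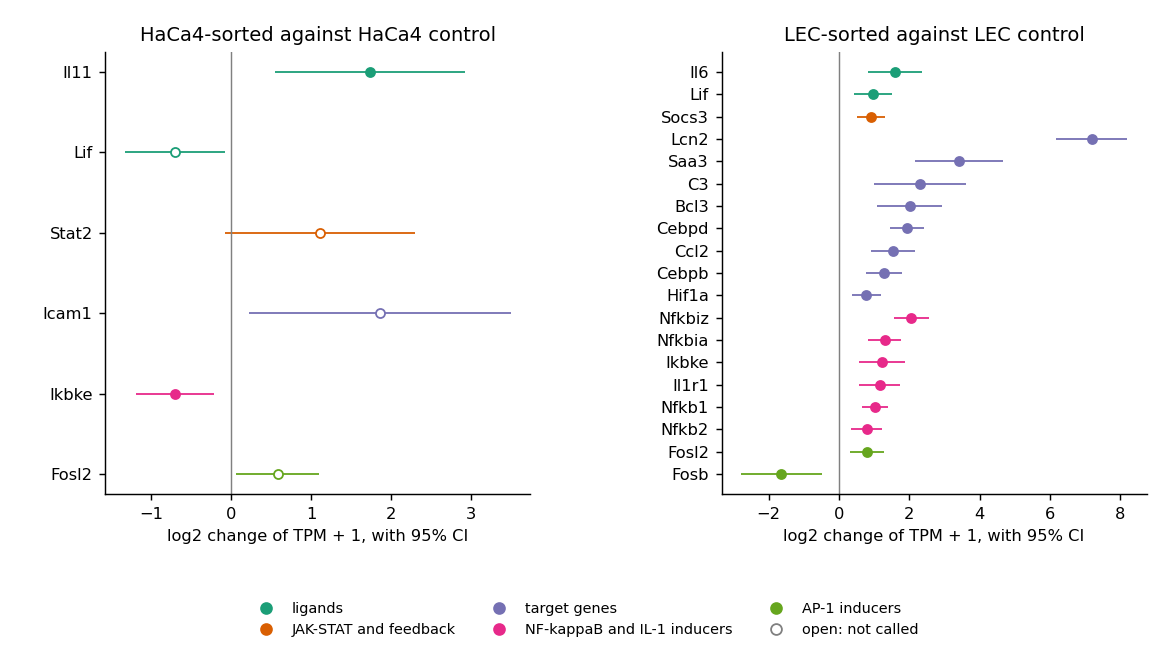
Log2 change of TPM + 1 between sorted and control (x axis) with 95% confidence intervals for IL-6 pathway genes in HaCa4 cells (left) and LECs (right), coloured by list, with open symbols for genes that did not pass the thresholds. In HaCa4 cells *Il11* and *Ikbke* passed, in opposite directions, and in LECs all genes shown passed, with *Fosb* alone lower in LEC-sorted.

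The genes whose pattern over the libraries was most like that of each member were found by the root-mean-square distance between profiles of log2(TPM + 1) centred on their means. For *Il11* over the 5 HaCa4 libraries these were *Dlx2* (distance 0.23), *Inhba* (0.32), and *Id3* (0.34), where the median distance of all other genes was 1.06. *Dlx2* encodes a homeobox factor, *Inhba* a subunit of activin A, and *Id3* an inhibitor of helix-loop-helix factors. *Inhba* had 21.20 and 9.70 TPM in HaCa4 control, against 55.61, 19.23, and 37.47 TPM in HaCa4-sorted replicates 1 to 3, the same order of sorted libraries as *Il11*, and it was not called (limma adjusted p = 0.0818). For *Lif* in HaCa4 cells the nearest were *Slc41a2* (0.15), *Megf10* (0.15), and *Ikbke* (0.19), against a median of 0.81.

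In the 6 LEC libraries, the gene nearest to *Lif* was *Socs3*, at a distance of 0.08 against a median of 0.62, followed by the ion transporter *Slc12a2* (0.10). Nearest to *Il6* were *Cfap69* (0.17), *Angptl4* (0.24), and the mitochondrial superoxide dismutase *Sod2* (0.25), against a median of 0.61. *Il6* and *Lif* were not among each other's nearest genes in LECs. *Lif* ranked 63rd by nearness to *Il6*, at a distance of 0.52. This distance is small where genes change by a similar amount on log2(TPM + 1), which compresses the low values of *Il6*. The log2 fold change of *Il6* was 1.60 on that scale and 2.90 with a pseudocount of 0.1. Nearness to *Il6* with other pseudocounts was not tested.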

How the data were processed

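Bulk RNA was sequenced on the BGISEQ platform in 11 libraries. Per the study's methods, SOAPnuke removed poor reads, HISAT (given as HISAT2 2.0.4 in the submitters' processing notes) mapped the rest to GRCm38.p6, and DESeq2 gave the differential genes. The authors deposited TPM values of a limited set of genes for each cell line. The tool that gave the TPM is not given in the sources used here. These genes make up 1.84% to 3.85% of a library's TPM. The depth is unknown, so precision rests on the spread between replicates, which may be technical. No pair of replicates was 1 library, as at most 5 genes had identical values above 0.

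Groups follow the titles in the labels. The second HaCa4 control is replicate 2 in its label and 3 in the name of its deposited values. Sorted and control libraries of a line were set against each other by limma 3.58.1 (R 4.3.3) on log2(TPM + 1), with the prior variance following the mean, two-sided, without a replicate block and without rescaling. Adjusted p-values are Benjamini-Hochberg over all listed genes of the line, and for the interaction over the 23 shared genes. The step was tested on simulated data in which every gene was raised above its real level. That test therefore does not cover low transcripts such as *Il6* in LEC control. Genes were named if they were members, belonged to an IL-6 pathway list, or were among the 3 nearest profiles of a member. A few that met this rule are not reported here. *Krt8*, *Pecam1*, and other marker genes come from lists of 31 endothelial and 20 keratinocyte genes. Members and lists were chosen with earlier results of these data known. Coordinates, promoters, and starts are from RefSeq on GRCm38.p6, matched by Entrez ID for all 3 members. The strands were read from GENCODE M21. Proteins were not used here. Plots used Python 3.11.15 with matplotlib 3.10.9.

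The replicate numbers were not taken to pair the libraries. In LECs the deviations of same-numbered libraries from their group means correlated at 0.23, 0.07, and -0.02 across genes. HaCa4 shares only 2 numbers, with correlations of 0.23 and 0.28, too few pairs to decide. The alternatives were pseudocounts of 0.1 and 5, minimum mean TPMs of 1 and 10, a common library median, a constant prior variance, a replicate block, a log2 threshold of 1 for counts, and leaving out each library. A block that follows the deposited name, numbering that control 3, was added after seeing the data.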

Additional observations from a re-analysis of the deposited data

Results flagged for a closer look

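The changes of *Lif* and *Ikbke* differed between the cell lines in the limma interaction fitted to the 11 libraries. The log2 difference, LEC minus HaCa4, was 1.67 for *Lif* (adjusted p = 0.00263) and 1.93 for *Ikbke* (standard error 0.42, adjusted p = 0.00196). Both were lower in 3 of 3 HaCa4-sorted libraries than in either control and higher in 3 of 3 LEC-sorted libraries than in any control. Such separation is no mark of these genes, since the groups did not overlap in 96.6% of the HaCa4 and 96.9% of the LEC genes. The interaction passed in 82.6% of the 23 shared genes. *Lif* was not called in HaCa4 cells, and the HaCa4 call of *Ikbke* was lost in 7 of 13 alternatives. The opposite directions of *Lif* were known before this test was written, so it is no independent support. No group was tested for single deviating libraries, since each holds only 2 or 3.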

How the results depend on the processing

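*Il11* in HaCa4 cells lost its call in 6 of 13 alternatives. Its log2 fold change was 1.36 with a pseudocount of 5 (limma adjusted p = 0.0641), 0.95 at a common library median (0.0771), and 1.74 with a constant prior variance (0.0755). Without 1 library it ranged from 1.38 to 2.20. *Lif* in HaCa4 cells gained a call with a pseudocount of 0.1 (-0.73, limma adjusted p = 0.0432), over genes with a mean of at least 10 TPM (-0.71, 0.0438), at a common library median (-1.54, 0.000979), and with the replicate block (-0.65, 0.00974). Without 1 library it ranged from -1.09 to -0.33. *Lif* in LECs lost its call at a common library median (0.39), and *Il6* in LECs kept its call in 12 of 12 alternatives but is below the 10 TPM minimum. The *Lif* difference between the lines passed in 19 of 19. *Fosl2* in HaCa4 cells reversed to -0.26 at a common library median. The causes were not tested.

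The number of HaCa4 genes called, 87, became 177 and 33 with pseudocounts of 0.1 and 5, 140 at a common library median (46 higher, 94 lower), 39 with a log2 threshold of 1, and 0 with a constant prior variance in limma, where 161 had an unadjusted p under 0.05. Without 1 library it ranged from 0 to 194, being 6 without control replicate 1, 0 without control replicate 2 (70 at an unadjusted p under 0.05), 194 without sorted replicate 1, and 0 without sorted replicate 3 (126). The number in LECs, 184, became 110 at a common library median (46 higher, 64 lower) and 95 with a log2 threshold of 1.

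With the replicate block, *Il11* was at 1.63 (limma adjusted p = 0.0003), *Lif* in LECs at 0.97, *Il6* at 1.60, and the *Lif* difference at 1.62. HaCa4-sorted replicate 3 has no partner there and adds nothing to the fold change. In HaCa4 cells that fit leaves little information on the spread of each gene. Its p-values thus rest mostly on the prior variance shared across genes. With the second control numbered 3, chosen after seeing the data, 22 HaCa4 genes were called, *Il11* at 2.20 among them and *Lif* at -0.67 not. With the block by label number, *Lif* in HaCa4 cells gained its call (-0.65, limma adjusted p = 0.00974). No other member's call changed with either block. With 2 or 3 libraries a group and no read counts, the error of low transcripts such as *Il6* could not be measured.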
